A study of Mus musculus with 27 samples.

Results

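Ptpn2 and other genes whose products restrain JAK-STAT signalling, 8 in all, were followed through 27 mouse libraries. They were the tyrosine phosphatase genes Ptpn2, Ptpn1, Ptpn6 and Ptpn11, and Socs1, Socs3, Socs2 and Cish of the suppressor of cytokine signalling (SOCS) family. The members were chosen by symbol, and all 8 had a row among the 55367 genes of both deposited count tables. The study asked how loss of Ptpn2 and interferon gamma (IFNγ) bear on axon regrowth, in 9 groups of 3 libraries. In sensory ganglia there were 5 groups of whole L4-L5 dorsal root ganglia: Ptpn2 knockout (KO) 3 days after sciatic nerve injury, KO after sham surgery, wild type (WT) 3 days after injury with RU521 injected at the sciatic nerve, WT 3 days after injury, and WT after sham surgery. RU521 inhibits cGAS, a sensor of DNA in the cytosol. In the eye there were 4 groups of picked retinal ganglion cells, the neurons whose axons form the optic nerve: KO given IFNγ, KO given buffer (PBS), WT given IFNγ, and WT given PBS, all 3 days after optic nerve injury. All retinal groups came from Ptpn2 flox mice whose eyes had received a viral vector (AAV) 2 weeks ahead of the injury, with Cre in the KO and GFP in the WT, and IFNγ followed immediately after the injury.

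The allele and Cre driver of the KO ganglia, the ages of the mice, what injured WT mice received in place of RU521, the share of picked cells that carried Cre and the number of cells per retinal library are not stated in these sources. The series text speaks of nerve tissue where the labels name ganglia, and titles call the sham group intact. Whether replicates are separate animals is not given either, so every p-value below measures only the spread between these libraries, which may be technical.

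Receptors for interferons, for cytokines of the interleukin 6 family and for growth hormone activate Janus kinases (JAKs), which phosphorylate STAT transcription factors. The phosphatases PTPN2 and PTPN1 remove phosphate from JAKs, while PTPN6 (SHP-1) acts mostly in cells of the blood lineage and PTPN11 (SHP-2) also passes growth factor signals on. SOCS genes are themselves switched on by STATs, and their proteins then block the kinases or receptors, so they are both brakes and readouts of the pathway. In the mouse optic nerve, deletion of Socs3 is known to increase axon regrowth.

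SOCS promoters are known to be bound by STATs and interferon regulatory factors, and 3 are shown here, of Socs1, Socs3 and Cish. These were the SOCS members with a promoter sequence at hand, and also the members with a match. They were not chosen by how far they moved, and Cish passed in no ganglion comparison. RefSeq windows (GRCm38.p6, 250 bases before to 50 after the transcription start) were at hand for 6 of the 8 members. They were searched for TTCNNNGAA, the pattern of gamma-activated (GAS) sites bound by STAT dimers, which reads alike on both strands, and on both strands for GAAA, any 2 bases, GAAA, the core of interferon-stimulated response elements (ISRE). Socs1 held this ISRE-like pattern at -83 to -74 and again, overlapping it, at -77 to -68 from the start (chr16:10785487-10785786, minus strand). Socs3 held TTCNNNGAA at -154 to -146 (chr11:117969317-117969616, minus strand), and Cish held it at 1 to 9 and at 12 to 20 (chr9:107296409-107296708, plus strand). Capitals mark the matches, 5′ to 3′ on the gene's strand.
Socs1: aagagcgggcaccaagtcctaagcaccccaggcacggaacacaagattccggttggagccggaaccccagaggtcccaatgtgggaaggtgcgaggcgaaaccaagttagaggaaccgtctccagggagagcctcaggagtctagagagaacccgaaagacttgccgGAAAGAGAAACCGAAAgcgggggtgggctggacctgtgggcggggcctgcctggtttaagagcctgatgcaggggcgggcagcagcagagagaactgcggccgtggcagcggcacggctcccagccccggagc
Socs3: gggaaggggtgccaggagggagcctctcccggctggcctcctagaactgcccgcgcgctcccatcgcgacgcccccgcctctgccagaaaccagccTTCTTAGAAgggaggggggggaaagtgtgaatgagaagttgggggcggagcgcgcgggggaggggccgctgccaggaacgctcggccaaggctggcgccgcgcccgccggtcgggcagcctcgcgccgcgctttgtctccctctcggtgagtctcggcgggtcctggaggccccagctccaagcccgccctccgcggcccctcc
Cish: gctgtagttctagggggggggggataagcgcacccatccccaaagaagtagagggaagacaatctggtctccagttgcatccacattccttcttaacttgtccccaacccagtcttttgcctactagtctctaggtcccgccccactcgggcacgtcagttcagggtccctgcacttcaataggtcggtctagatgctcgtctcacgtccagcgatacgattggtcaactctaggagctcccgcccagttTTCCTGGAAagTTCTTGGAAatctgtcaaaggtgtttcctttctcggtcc
The windows of Ptpn1, Ptpn6 and Ptpn11 held neither pattern. Of 32851 RefSeq windows of that length, 8.30% held TTCNNNGAA and 0.457% held it 2 or more times, while 3.44% held the ISRE-like pattern and 0.225% held it 2 or more times. A match says only that these letters are there, and binding was not measured.

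**Figure D1:**
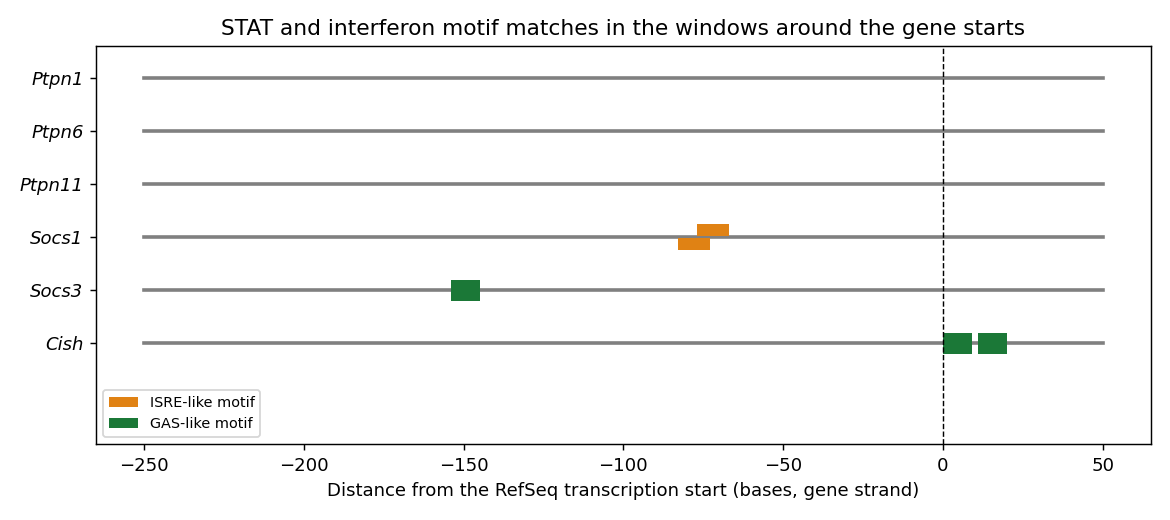
Positions of the motif matches in the RefSeq windows of 6 members, from 250 bases before to 50 after the transcription start (horizontal axis, bases along the gene's strand; the dashed line is the start). Socs1 holds 2 overlapping ISRE-like matches, Socs3 holds 1 GAS-like match and Cish holds 2, and Ptpn1, Ptpn6 and Ptpn11 hold none.

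Ganglion libraries held 14813365 to 22414750 counts and retinal libraries 13239988 to 17122057. A level of 3 counts, taken as the floor, was worth 0.131 to 0.208 CPM (the count scaled to library size, by TMM) in a ganglion library and 0.168 to 0.287 CPM in a retinal one, and floors and intervals of counts cover counting error only. All 12 sensory neuron markers were detected in every ganglion group, and all 12 retinal ganglion cell markers in every retinal group. WT sham replicates 1 and 3 stood apart, with 26235 and 26802 detected genes against 34115 in replicate 2. Their mitochondrial share of counts was 4.87% and 6.52%, against 15.2% in replicate 2, 13.2% to 15.7% in injured WT, 7.83% in RU521 replicate 1 and 11.3% to 18.6% in the remaining ganglion libraries, and its part in the WT injury and RU521 results was not tested. Without those 2 libraries the WT sham group is replicate 2 alone, which the fit assumes to vary like the other groups, so such values and p-values carry no replicate check of that group. Among retinal libraries, KO PBS replicate 2 stood apart: its 18 macrophage and microglia markers summed to 5774 CPM, against 15.3 to 213 CPM in the other retinal libraries, with Adgre1 (F4/80) at 26.9 CPM there and at most 0.0643 CPM elsewhere. Results that rest on these libraries are given with and without them. Counts were taken over all exons of a gene, so Ptpn2 counts do not check the KO label, and every genotype direction rests on the labels.

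In ganglia of both genotypes, injury was accompanied by higher levels of several of these brakes. In KO ganglia 6 of 8 members rose with injury (Ptpn2, Ptpn1, Ptpn6, Socs1, Socs2 and Socs3), where 10.9% of all 18517 genes tested passed in either direction. In WT ganglia 3 of 8 rose (Ptpn1, Ptpn6 and Socs3), where 16.6% of all genes passed. These 2 counts were not tested against each other, and calls of single members depend on single libraries, as given below. The member medians were 0.97 in KO and 0.23 in WT ganglia on the log2 scale, and the medians of all genes tested were -0.01 and 0.00 in that order. Passing means an adjusted p under 0.05 in edgeR's quasi-likelihood test with Benjamini-Hochberg adjustment over all genes, and fold changes are log2 values ± SE.

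Between genotypes, 1 of 8 members passed in injured ganglia: Socs1 was higher in KO than in WT, where 2.20% of all genes passed. The interaction, which asks whether the injury effect itself differs between KO and WT, also passed for 1 of 8, again Socs1, where 0.448% of all genes passed. In sham ganglia 0 of 8 differed by edgeR (1 at an unadjusted p under 0.05, 0 by DESeq2), where 0.135% of all genes passed. RU521 changed 0 of 8 members against injured WT by edgeR (2 at an unadjusted p under 0.05, 2 by DESeq2), where 9.58% of all genes passed. Against WT sham, injured ganglia with RU521 differed in 1 of 8 by edgeR, Socs2 (3 members at an unadjusted p under 0.05, 2 by DESeq2), where 2.39% of all genes passed. The member medians were 0.40 for injured KO against injured WT, -0.15 for sham KO against sham WT, -0.22 for RU521 against injured WT and 0.24 for RU521 against WT sham, and the medians of all genes lay between -0.04 and -0.01. Comparisons that share a group, such as the WT sham libraries, are not independent of each other. Some ganglion groups are described below as not overlapping. The share of all genes that separate in this way was not counted, so lack of overlap describes these libraries and is not by itself evidence of a difference.

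**Figure D2:**
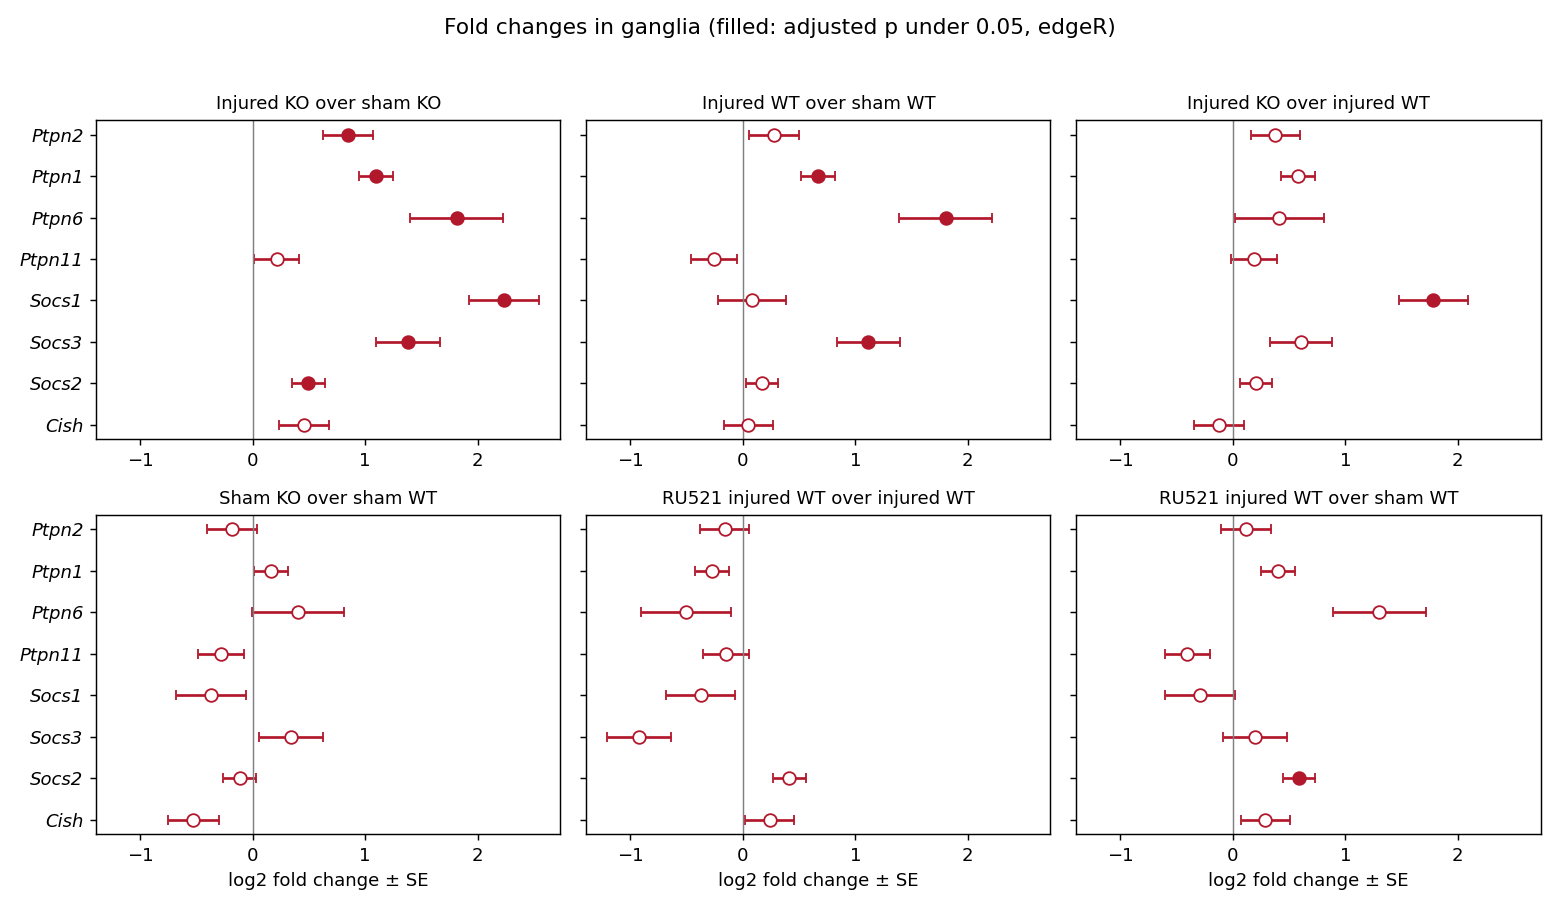
Log2 fold change ± SE (horizontal axis) of the 8 members in 6 ganglion comparisons, each named as the group on top over the group below, with filled points where edgeR's adjusted p was under 0.05. The top row shows 6 filled points for injury in KO, 3 for injury in WT, and Socs1 alone for injured KO over injured WT.

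Per length of transcript, the order of the members depended on the group. In RPKM (TMM-scaled CPM per kilobase of summed exon length), injured KO ganglia ranked Ptpn6 first at 30.8 ± 5.55, then Ptpn1 at 18.04 ± 2.58, Socs3 at 11.3 ± 1.44, Ptpn2 at 7.37 ± 1.31 and Socs1 at 6.33 ± 0.798 (mean ± SD, n = 3). Of these neighbours only Ptpn2 and Socs1 overlapped, and Ptpn11 at 4.98 ± 0.678 overlapped Socs2 at 4.904 ± 0.501, with Cish last at 1.28 ± 0.238. In WT sham ganglia the first 6 places, from Ptpn1 at 7.57 ± 0.783 and Ptpn6 at 6.65 ± 4.86 down to Socs3 at 3.43 ± 0.412, overlapped neighbour by neighbour. Socs1 stood at rank 5 in injured KO ganglia, at rank 7 in sham KO, injured WT and sham WT ganglia, and at rank 8 with RU521.

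**Figure D3:**
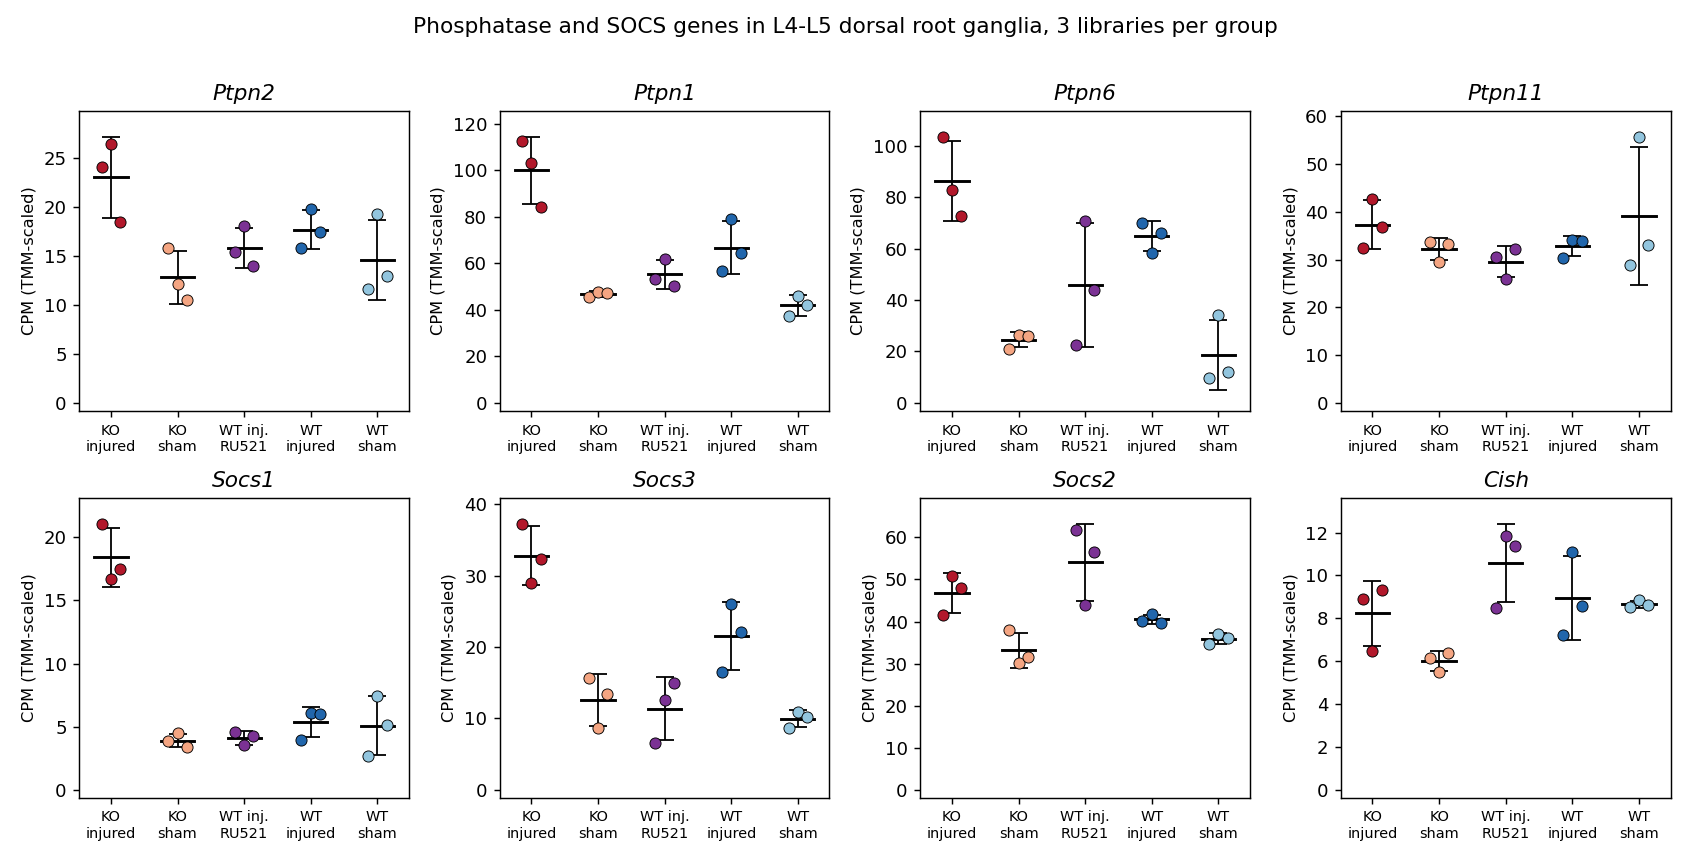
CPM (TMM-scaled, vertical axes from 0) of each member in the 15 ganglion libraries, 1 point per library, with the group mean (thick line) and SD (error bar), n = 3. The 3 injured KO libraries stand above all 12 others for Socs1, Socs3, Ptpn1 and, narrowly, Ptpn6 (72.8 CPM at the lowest, against 70.7 CPM in RU521 replicate 2). Of these only Socs1 passed between injured KO and injured WT by edgeR. The share of all genes that stand apart in this way was not counted.

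Ptpn2, the phosphatase that the study deleted (GRCm38 chromosome 18, 67665511 to 67724595, minus strand), had 24.1, 26.5 and 18.5 CPM in injured KO ganglia, against 15.8, 12.1 and 10.5 CPM in sham KO ganglia. The injured KO libraries were all above the sham KO libraries, a 1.795-fold difference (0.84 ± 0.22, adjusted p = 0.0244 by edgeR). In WT ganglia the values were 15.9, 19.8 and 17.5 CPM after injury, against 11.6, 19.3 and 12.9 CPM after sham surgery. These overlapped, since sham replicate 2 lay within the injured values (0.28 ± 0.22, adjusted p = 0.415 by edgeR). The WT rise passed under 1 of 23 alternatives, limma-voom with quality weights (0.47 ± 0.16, adjusted p = 0.022 by voom). With RU521 the level was 15.4, 18.1 and 14.01 CPM. Injured KO and injured WT overlapped (0.38 ± 0.22, adjusted p = 0.504 by edgeR), and so did sham KO and sham WT (-0.19 ± 0.22, adjusted p = 0.872 by edgeR). The injury effect did not differ detectably between KO and WT: the difference was 0.56 ± 0.31, with a 95% interval of -0.10 to 1.23. Without WT sham replicates 1 and 3 injury gave 0.85 in KO and -0.09 in WT. The rise in KO ganglia lost its call on leaving out any of 4 of the 15 libraries, KO sham 2 or 3 or KO injured 1 or 2, with values of 0.70 to 0.81 there.

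Ptpn1 (chromosome 2, 167932057 to 167979385, plus strand) encodes PTP1B, the closest relative of PTPN2, which acts on JAK2 and TYK2. Its levels were 112, 103 and 84.3 CPM in injured KO ganglia, against 45.5, 47.5 and 47.4 CPM in sham KO ganglia. In WT ganglia they were 56.6, 79.03 and 64.3 CPM after injury, against 37.5, 46.1 and 42.01 CPM after sham surgery. Neither pair overlapped, and the rise was 2.13-fold in KO (1.09 ± 0.15, adjusted p = 0.000346 by edgeR) and 1.59-fold in WT (0.67 ± 0.15, adjusted p = 0.00905 by edgeR). Injured KO libraries were also all above injured WT libraries, but this difference missed the threshold (0.58 ± 0.15, adjusted p = 0.0594 by edgeR), and it passed under 8 of 23 alternatives, DESeq2 among them (0.59, adjusted p = 0.0114). The WT rise lost its call without WT injured replicate 2 (0.53, adjusted p = 0.0599 by edgeR) and without WT sham replicates 1 and 3 together (0.57, adjusted p = 0.0974 by edgeR). With RU521 Ptpn1 had 53.4, 61.98 and 50.2 CPM, which overlapped injured WT (-0.27 ± 0.15, adjusted p = 0.2796 by edgeR).

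Ptpn6 (chromosome 6, 124720707 to 124738714, minus strand), the phosphatase gene of blood-lineage cells, showed the widest span of the 8. It had 103, 82.6 and 72.8 CPM in injured KO ganglia, against 21.1, 26.3 and 26.1 CPM in sham KO ganglia, a 3.52-fold rise (1.81 ± 0.41, adjusted p = 0.0107 by edgeR). In WT ganglia it had 69.9, 58.4 and 65.9 CPM after injury, against 9.58, 34.3 and 12.03 CPM after sham surgery, a 3.49-fold rise (1.80 ± 0.41, adjusted p = 0.00995 by edgeR). The injured KO libraries were also all above the injured WT libraries, but that difference did not pass (0.41 ± 0.40, adjusted p = 0.734 by edgeR). Injured libraries without RU521, of either genotype, stood above all sham libraries, of which sham WT replicate 2 was the highest, while RU521 replicate 1 (22.5 CPM) lay among the sham values. Against WT sham replicate 2 alone, the WT value was 0.95, and with only replicate 3 left out it was 1.57 and lost its call (adjusted p = 0.053 by edgeR). Over the 15 libraries left out in turn, the WT value ran from 1.49 to 2.58, and the call was lost in 1 of these fits. The KO value lost its call without KO sham replicate 1 (1.72, adjusted p = 0.0605 by edgeR). Injured ganglia with RU521 gave 1.30 against WT sham (adjusted p = 0.114 by edgeR). That value passed under 6 of 23 alternatives, DESeq2 among them (1.33, adjusted p = 0.0239). Against injured WT the RU521 value was -0.50 (adjusted p = 0.48 by edgeR).

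Macrophage markers moved with Ptpn6. In whole ganglia, more cells of a type and more RNA per cell cannot be told apart. Of 18 macrophage and microglia markers, 16 rose with injury in KO and 17 in WT, and their summed level was 4389.5, 3817 and 3729 CPM in injured KO, against 882, 1229 and 1182 CPM in sham KO. In WT it was 3233, 3143 and 3126 CPM after injury, against 438, 1348 and 523 CPM after sham surgery, and with RU521 it was 1204, 3592 and 2432 CPM. Per 1000 CPM of that sum, Ptpn6 lay between 18.1 and 25.4 CPM in all 15 libraries (median 21.6), a 1.41-fold span, while Ptpn6 itself spanned 10.8-fold and the marker sum 10.03-fold. The same ratio spanned 4.96-fold for Ptpn1, 5.41-fold for Ptpn2, 5.64-fold for Socs3, 9.98-fold for Socs1 and up to 11.5-fold for Cish. The RU521 libraries, whose Ptpn6 levels lay far apart (22.5, 70.7 and 43.98 CPM), had ratios of 18.7, 19.7 and 18.1. Neutrophil markers also stood higher after injury, at 3784 to 3922 CPM summed in injured KO against 1259 to 1802 in sham KO, and at 3142 to 4161 CPM in injured WT against 412 to 1476 in sham WT. The part of either cell type in the Ptpn6 result was not tested. Ptpn6 shares 195 exon bases with the predicted gene Gm20531 on the other strand, whose mean level was 0.373 CPM.

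**Figure D4:**
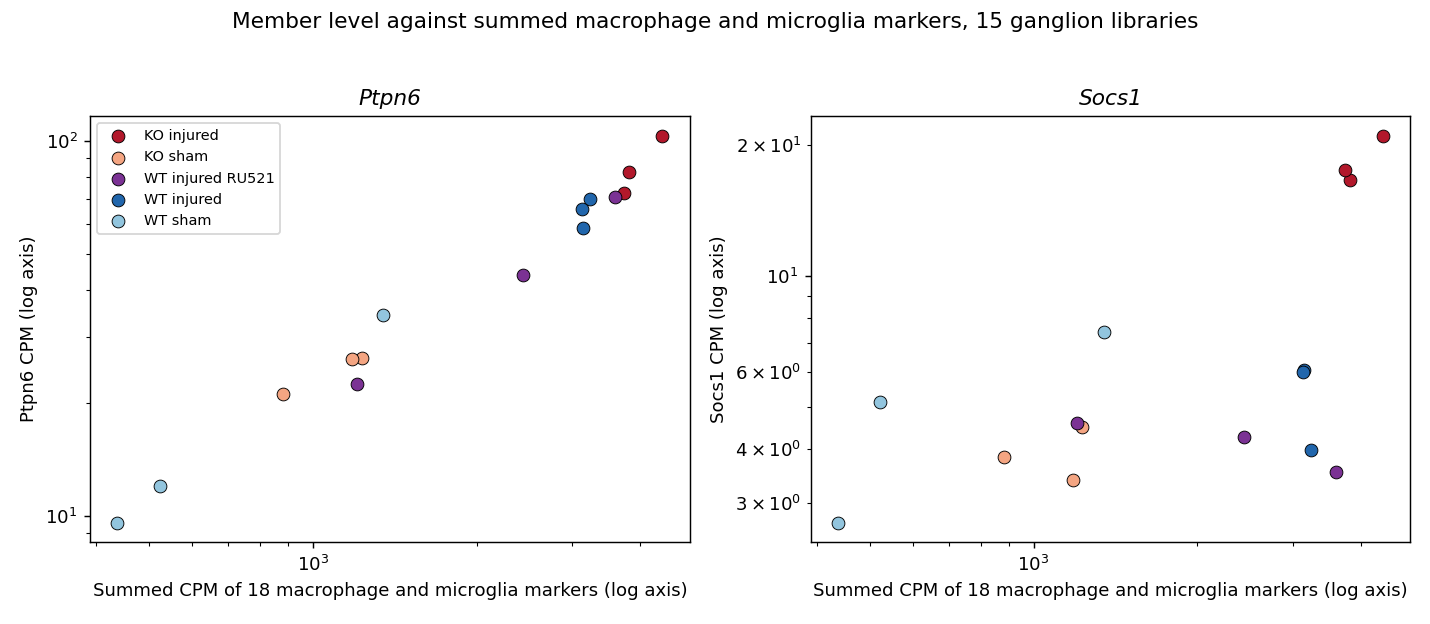
CPM of Ptpn6 (left) and Socs1 (right) against the summed CPM of 18 macrophage and microglia markers in 15 ganglion libraries, both axes logarithmic, 1 point per library. Ptpn6 lies along 1 line through all groups, between 18.1 and 25.4 CPM per 1000 CPM of markers, while Socs1 separates the 3 injured KO libraries, at 16.7 to 21.0 CPM, from injured WT libraries with nearly as high a marker sum.

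Ptpn11 (chromosome 5, 121130533 to 121191397, minus strand), which encodes SHP-2, passed in no ganglion comparison with all libraries. It had 32.5, 42.6 and 36.8 CPM in injured KO and 33.7, 29.5 and 33.3 CPM in sham KO ganglia, 30.6, 25.9 and 32.2 CPM with RU521, 30.3, 34.2 and 33.8 CPM in injured WT and 28.8, 55.6 and 33.1 CPM in sham WT ganglia. The high value is again WT sham replicate 2. When that 1 library stood for the WT sham group, the values were -0.73 for injury in WT, -0.78 for sham KO and -0.89 for RU521 against WT sham, which compare the other libraries with a single one. Without that replicate the WT injury value was 0.08, so its direction rests on which sham libraries are used. In KO ganglia injury gave 0.21 ± 0.20 (adjusted p = 0.569 by edgeR).

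Socs1 (chromosome 16, 10782240 to 10785536, minus strand), the feedback inhibitor of interferon signalling, was the only member past the edgeR threshold between injured KO and injured WT. It had 21.04, 16.7 and 17.5 CPM in injured KO ganglia, against 3.97, 6.06 and 5.995 CPM in injured WT ganglia, a 3.44-fold difference (95% interval 2.19 to 5.401). On the log2 scale this was 1.78 ± 0.31 (adjusted p = 0.00379 by edgeR), rank 142 of 18517 genes by p. Sham libraries had 3.83, 4.48 and 3.397 CPM in KO and 2.701, 7.41 and 5.13 CPM in WT, and RU521 libraries 4.58, 3.53 and 4.25 CPM. The injured KO libraries were all above the highest of the other 12, which was WT sham replicate 2, and the other groups overlapped one another.

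With injury Socs1 rose 4.705-fold in KO (2.23 ± 0.31, adjusted p = 0.000357 by edgeR), while the WT value was 0.08 ± 0.31 (adjusted p = 0.883 by edgeR). The interaction was 2.15 ± 0.43 (95% interval 1.23 to 3.07, adjusted p = 0.0397 by edgeR). The rise in KO and the difference between injured KO and injured WT passed under 23 of 23 alternatives each, at 2.12 to 2.32 and 1.6 to 1.98. The call of the interaction was less firm: it was lost on leaving out any of 11 of the 15 libraries, with values of 1.96 to 2.24 and adjusted p up to 0.146 by edgeR in those fits. Those libraries were WT sham 3, all 3 of injured WT, of sham KO and of injured KO, and RU521 replicate 3. It was also lost with only the 4 groups compared in the fit (2.15, adjusted p = 0.0508 by edgeR). Without WT sham replicates 1 and 3 it was 2.68, a value that rests on 1 WT sham library, the one with the highest Socs1 level outside the injured KO group. The macrophage marker sum was also higher in injured KO than in injured WT libraries, without overlap, and 2 of 18 of those markers passed. T and NK cell markers were also higher without overlap, at 39.5 to 69.5 CPM summed in injured KO against 19.3 to 26.8 CPM in injured WT (1 of 10 passed). Lower without overlap were myelinating Schwann cell markers, at 10376 to 13127 CPM in injured KO against 22284 to 24136 CPM in injured WT (4 of 10 passed), and endothelial and fibroblast markers, at 2181.8 to 2429 against 3425 to 3475 CPM (3 of 11 passed). Red blood cell markers stood at 5293 to 6582 CPM in injured KO against 10704 to 10773 CPM in injured WT, with 0 of 5 past the threshold. The part of these cell types in the Socs1 difference was not tested. Socs1 per 1000 CPM of the macrophage marker sum was 4.79, 4.36 and 4.697 in injured KO, against 1.23, 1.93 and 1.92 in injured WT ganglia. It was 4.34, 3.65 and 2.87 in sham KO, 6.17, 5.49 and 9.80 in sham WT, and 3.80, 0.983 and 1.75 with RU521. By this ratio injured KO overlapped no injured WT library, but it lay below every sham WT library and its lowest value was close to the highest of sham KO.

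Socs3 (chromosome 11, 117966079 to 117970047, minus strand), the brake on gp130 and STAT3 signalling, rose with injury in both genotypes. It had 37.2, 28.9 and 32.3 CPM in injured KO, against 15.7, 8.61 and 13.4 CPM in sham KO ganglia, a 2.61-fold rise (1.38 ± 0.28, adjusted p = 0.00577 by edgeR). In WT it had 16.5, 26.01 and 22.05 CPM after injury, against 8.63, 10.96 and 10.2 CPM after sham surgery, a 2.17-fold rise (1.12 ± 0.28, adjusted p = 0.0157 by edgeR). Neither pair overlapped, and injured KO libraries were all above injured WT libraries, although that difference did not pass (0.61 ± 0.28, adjusted p = 0.356 by edgeR). The KO rise passed under 23 of 23 alternatives and the WT rise under 17 of 23. The WT call was lost without WT sham replicate 1 (1.02), WT sham 3 (1.14), WT injured 2 (0.95) or WT injured 3 (1.1), and without WT sham replicates 1 and 3 together (1.01), at adjusted p of 0.0509 to 0.158 by edgeR.

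With RU521, Socs3 was at 6.54, 12.5 and 15.01 CPM, all below the injured WT libraries, but this just missed the threshold (-0.92 ± 0.28, 95% interval -1.52 to -0.32, adjusted p = 0.0511 by edgeR). It passed under 9 of 23 alternatives, including DESeq2 (-0.91, adjusted p = 0.0155), at values of -1.17 to -0.64 over all of them. RU521 libraries overlapped WT sham libraries (0.20 ± 0.28, adjusted p = 0.846 by edgeR). Other cell type markers moved with RU521: 10 of 10 myelinating Schwann cell markers, 7 of 11 endothelial and fibroblast markers and 4 of 18 macrophage markers were lower than in injured WT, and 5 of 12 sensory neuron markers were higher. Their part in the Socs3 and Socs2 values was not tested.

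Socs2 (chromosome 10, 95385362 to 95417180, minus strand), the brake on growth hormone signalling, moved little. It had 41.5, 50.7 and 48.1 CPM in injured KO, against 37.9, 30.1 and 31.5 CPM in sham KO ganglia, a 1.41-fold rise without overlap (0.50 ± 0.14, adjusted p = 0.0385 by edgeR). In WT it had 40.2, 41.8 and 39.6 CPM after injury, against 34.7, 37.1 and 36.1 CPM after sham surgery, also without overlap, but the difference of 0.17 ± 0.14 did not pass (adjusted p = 0.437 by edgeR). The highest levels were with RU521, at 61.7, 44.01 and 56.4 CPM, all above both injured and sham WT. Against WT sham this passed (0.59 ± 0.14, 1.504-fold, adjusted p = 0.0425 by edgeR), and against injured WT it did not (0.41 ± 0.14, adjusted p = 0.0798 by edgeR). Both calls were fragile: the KO one was lost on leaving out any of 9 of 15 libraries (0.40 to 0.60 over the 15) and the RU521 one on leaving out any of 10 (0.48 to 0.72), or WT sham replicates 1 and 3 together (0.56, adjusted p = 0.0911 by edgeR). The libraries without which both were lost were WT sham 3, WT injured 1, 2 and 3, KO sham 3, KO injured 2 and 3, and RU521 3. The KO call was also lost without KO sham 2, and the RU521 call without WT sham 1 or RU521 1.

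Cish (chromosome 9, 107296026 to 107302784, plus strand), a STAT5-induced SOCS gene, passed in no ganglion comparison. It had 8.89, 6.49 and 9.32 CPM in injured KO and 6.16, 5.498 and 6.38 CPM in sham KO ganglia, 8.497, 11.9 and 11.4 CPM with RU521, 7.203, 11.1 and 8.57 CPM in injured WT and 8.54, 8.84 and 8.61 CPM in sham WT ganglia. Sham KO libraries were the lowest group and did not overlap sham WT libraries (-0.53 ± 0.22, unadjusted p = 0.0314, adjusted p = 0.512 by edgeR). They did not overlap injured KO libraries either (0.45 ± 0.22, adjusted p = 0.223 by edgeR). Brown fat markers, which a ganglion should lack, were highest in the same group, at 172 to 290 CPM summed in sham KO against 12.5 to 76.3 CPM in sham WT, and their part was not tested. Cish shares exon bases with the antisense predicted genes Gm17040 (261 bases, mean 0.133 CPM) and Gm17041 (479 bases, 0 CPM).

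Among other JAK-STAT brakes, a list of 12, only Usp18 followed the pattern of Socs1. Usp18, which removes ISG15 and damps the type I interferon receptor, had 259, 73.1 and 64.6 CPM in injured KO, against 8.85, 11.4 and 9.35 CPM in injured WT ganglia, without overlap but with replicate 1 far above the other injured KO libraries. It passed for injury in KO (3.49 ± 0.43), for KO against WT after injury (3.74 ± 0.44) and for the interaction (3.40 ± 0.58), at adjusted p = 0.000115, 0.000131 and 0.0146 by edgeR. Ptprc, the blood-cell phosphatase CD45 and also a macrophage marker, rose with injury in KO (1.51 ± 0.44) and WT (1.91 ± 0.45). Socs7 fell with injury in WT (-0.70 ± 0.22) and was higher with RU521 than in injured WT (0.78 ± 0.22). In no ganglion comparison did more than 2 of the 12 pass, and the list's median stayed between -0.13 and 0.09 on the log2 scale.

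Genes induced downstream of the pathway were also measured. Of 12 IFNγ target genes, 10 were higher in injured KO than in injured WT ganglia, with a list median of 2.91 against -0.01 for all genes. The interaction passed for 8 of 12, injury raised 10 in KO and 2 in WT, and by edgeR 0 passed in sham KO against sham WT (3 at an unadjusted p under 0.05, 1 by DESeq2) and 0 with RU521 against injured WT (3 unadjusted, 2 by DESeq2). Gbp2, an interferon-induced GTPase, had 577, 829 and 736 CPM in injured KO and 32.96, 34.8 and 32.1 CPM in injured WT ganglia (4.42 ± 0.24), without overlap. Stat2, a factor of type I interferon signalling, was higher in injured KO than in injured WT (1.44 ± 0.30, adjusted p = 0.0179 by edgeR). Of 10 gp130-STAT3 target genes, 6 rose with injury in KO and 6 in WT, and 2 were higher in injured KO than in injured WT, the acute phase gene Saa3 (7.01 ± 0.30) and the protease inhibitor gene Timp1 (3.26 ± 0.60). The lists were chosen with earlier results of these data known, so their counts are a description.

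Over the 15 ganglion libraries, each member was set beside the gene with the nearest centred log2 profile, by the root mean square difference (RMS), with no test. Socs1 was nearest to the proteasome activator genes Psme1 (RMS 0.327) and Psme2 (0.356), against a spread of 0.91 for Socs1 itself. Ptpn6 was nearest to Tyrobp (0.116), a macrophage marker used above, and to Cd48 (0.167) and Hcls1 (0.191), against a spread of 1.05. Socs3 was nearest to Gfra1 (0.3), St6galnac4 (0.3) and Irf1 (0.302), against 0.75. Ptpn1 was nearest to Klf6 (0.12), the pseudogene Cd63-ps (0.13) and Arpc1b (0.146), and Ptpn2 to Svbp (0.129), Ell2 (0.189) and Lgals1 (0.19). Ptpn11 was nearest to Ncl (0.135), Rpl7 (0.148) and Ctcf (0.148), Socs2 to Ric8a (0.139), Cgref1 (0.157) and Banf1 (0.159), and Cish to Mrtfa (0.192), Colgalt1 (0.205) and Tuba1a (0.205). The profiles share library and depth, and members that vary little lie near many genes. Among the members, Ptpn2 and Ptpn1 were the closest pair (0.247), and Ptpn6 and Ptpn11 the farthest apart (1.004).

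In retinal ganglion cells the members varied from library to library, and no difference between groups passed by edgeR. Ptpn6 had counts in 2 of 12 libraries and was too low to test, so 7 of 8 members entered. Of these, 0 passed for IFNγ in KO (0.00% of 13487 genes passed), 0 for IFNγ in WT (0.00%), 0 for KO against WT with PBS (0.0222%), 0 with IFNγ (0.00%), 0 for the interaction (0.00%) and 0 for KO with IFNγ against WT with PBS (0.0519%). At an unadjusted p under 0.05 there were 1, 1, 2, 0, 1 and 2 members in that order, and DESeq2 called 1, 0, 1, 0, 0 and 1. Over all genes, the unadjusted counts were 879, 542, 1281, 668, 721 and 1058, and DESeq2 called 316, 204, 519, 224, 329 and 348 genes. The biological coefficient of variation was 1.27 in retinal cells and 0.262 in ganglia, so a difference of a given size had a much wider interval in retinal cells. Some retinal groups are described below as not overlapping. The share of all genes that separate in this way was not counted, and groups this small can separate by chance. Lack of overlap in retinal cells is therefore a description of these libraries and not evidence of a difference.

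Ptpn2 had 15.5, 0 and 23.9 CPM in KO with IFNγ and 10.1, 8.07 and 7.71 CPM in KO with PBS, against 0, 9.88 and 14.1 CPM in WT with IFNγ and 10.5, 7.26 and 3.39 CPM in WT with PBS. All groups overlapped, and 1 library with IFNγ of each genotype had no Ptpn2 count. Ptpn1 had 68.99, 31.3 and 65.6 CPM in KO with IFNγ, against 4.59, 30.3 and 12.02 CPM in WT with IFNγ. These did not overlap (1.82 ± 0.85, unadjusted p = 0.0504, adjusted p = 0.913 by edgeR). With PBS, Ptpn1 had 19.7, 103 and 10.4 CPM in KO, against 35.5, 32.4 and 34.3 CPM in WT, and the high KO value is the library with macrophage markers. With that library the difference was 0.38 ± 0.83, and without it -1.22 ± 0.79, so its sign turned. Ptpn11 was detected in all 12 libraries, at 44.8, 32.5 and 25.8 CPM in KO with IFNγ and 39.5, 76.8 and 29.2 CPM in KO with PBS, against 53.5, 90.99 and 44.4 CPM in WT with IFNγ and 55.4, 83.2 and 71.3 CPM in WT with PBS. KO with IFNγ lay below WT with PBS without overlap, but this difference did not pass (-1.03 ± 0.50, adjusted p = 0.629 by edgeR). Ptpn6 had 23 counts (1.38 CPM) in KO PBS replicate 2 and 116 counts (8.56 CPM) in WT PBS replicate 3.

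Socs3 was at 0 across a whole group: no library of WT with PBS had a count, where 3 counts would be 0.228 CPM on average. KO with IFNγ had 56, 71 and 162 counts (4.58, 4.57 and 9.81 CPM), a mean 27.7-fold that of WT with PBS when each library at 0 is set to 3 counts. Such a ratio of means covers counting error only and is not a lower bound on the difference between groups. KO with PBS had 0, 158 and 225 counts (0, 9.51 and 12.6 CPM), a mean 32.3-fold that floor, with 1 library at 0. Of its other libraries, 1 is the library with macrophage markers, and the remaining one had 12.6 CPM. WT with IFNγ had 0, 7 and 52 counts (0, 0.618 and 3.22 CPM), a mean 5.61-fold that floor, also with 1 library at 0. KO with IFNγ thus overlapped neither WT group, and edgeR's adjusted p was 0.596 against WT with PBS and 1 against WT with IFNγ, while DESeq2 passed the first of these (adjusted p = 0.0285) and also KO against WT with PBS (adjusted p = 0.0142). Fitted values against a group at 0 depend on the prior count and are not given.

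Socs1 had 25.1, 2.702 and 33.1 CPM in KO with IFNγ and 0, 12.1 and 19.5 CPM in KO with PBS, against 0, 8.65 and 8.36 CPM in WT with IFNγ and 4.59, 8.26 and 8.19 CPM in WT with PBS. The 3 highest libraries were KO libraries, but each KO group also held a library at or under 2.70 CPM, and KO with IFNγ against WT with IFNγ gave 1.84 ± 1.91 with a 95% interval of -2.27 to 5.95. Socs2 had 86.5, 53.3 and 8.29 CPM in KO with IFNγ, against 0, 6.62 and 2.35 CPM in KO with PBS, without overlap (4.04 ± 1.36, adjusted p = 0.729 by edgeR, adjusted p = 0.034 by DESeq2). In WT it had 25.5, 32.4 and 31.3 CPM with IFNγ, against 19.6, 72.05 and 15.9 CPM with PBS, and KO with PBS was below WT with PBS without overlap (-3.58 ± 1.33, adjusted p = 0.517 by edgeR). Without KO PBS replicate 2 these values were 5.37 ± 1.63 and -4.93 ± 1.59. Cish had 49.4, 81.8 and 55.7 CPM in WT with IFNγ, against 32.9, 17.9 and 20.1 CPM in WT with PBS, without overlap (1.40 ± 0.69, unadjusted p = 0.0628, adjusted p = 1 by edgeR). In KO it had 131, 53.8 and 15.02 CPM with IFNγ and 67.9, 22.5 and 68.7 CPM with PBS, which overlapped. KO with PBS against WT with PBS gave 1.17 ± 0.69 (adjusted p = 0.596 by edgeR), and 1.5 ± 0.70 without KO PBS replicate 2.

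**Figure D5:**
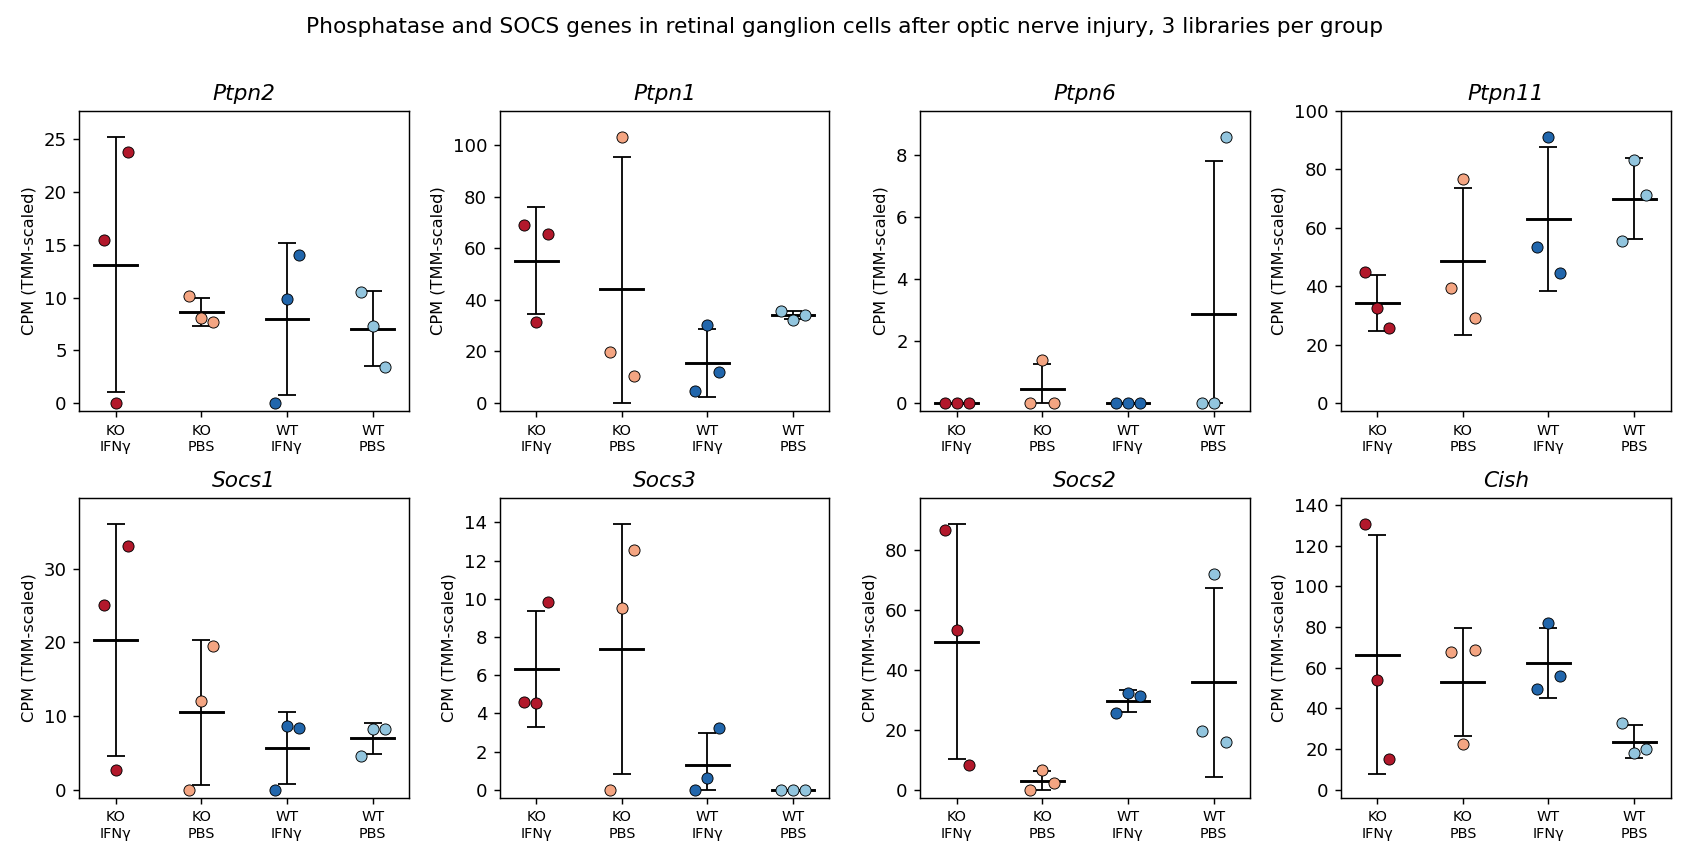
CPM (TMM-scaled, vertical axes from 0) of each member in the 12 retinal libraries, 1 point per library, with the group mean (thick line) and SD (error bar, stopped at 0), n = 3. Socs3 is at 0 in all 3 libraries of WT with PBS and present in all 3 of KO with IFNγ, while most members overlap between groups.

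In these cells 1 of 8 tested IFNγ target genes passed, Tap1, a peptide transporter of antigen presentation. It had 45.3, 50.5 and 69.9 CPM in KO with IFNγ, against 0.0957, 0.82004 and 0 CPM in WT with PBS (7.40 ± 1.19, adjusted p = 0.0496 by edgeR). KO with PBS had 47.6, 67.1 and 26.2 CPM, which overlapped KO with IFNγ, and WT with IFNγ had 22.8, 8.56 and 17.8 CPM. The comparison that passed thus mixes genotype and treatment, and with single libraries left out it called 0 to 4 genes in place of 7. In that comparison 8 of 8 target genes were at an unadjusted p under 0.05 and DESeq2 called 6. For IFNγ in WT, 0 of 8 passed by edgeR (5 unadjusted, 6 by DESeq2), and for KO against WT with PBS 0 of 8 (7 unadjusted, 6 by DESeq2), a comparison that includes the library with macrophage markers. For IFNγ in KO 0 of 8 passed (0 unadjusted, 0 by DESeq2). Of 11 other brakes and 8 gp130-STAT3 targets tested, 0 passed in any retinal comparison by edgeR, with at most 2 and 1 at an unadjusted p under 0.05, and at most 0 and 2 by DESeq2. Macrophage marker sums were 15.3 to 25.8 CPM in KO with IFNγ, 26.4 to 5774 CPM in KO with PBS and 60.1 to 158 CPM in WT with IFNγ, against 113 to 213 CPM in WT with PBS. Of the 18 markers, Itgam, Trem2 and Ptprc were at 0 in all 3 libraries of KO with IFNγ, and 4 were detected in WT with PBS. Cd68 alone had 143, 113 and 198 CPM in WT with PBS, all or most of each sum. The sums of that group thus follow 1 gene and not the list. Summed Müller glia and astrocyte markers were 1113 to 4543 CPM in KO with IFNγ, 709 to 4509 CPM in KO with PBS and 2199 to 4950 CPM in WT with IFNγ, against 881 to 1120 CPM in WT with PBS. They thus separated WT with IFNγ from WT with PBS without overlap, as Cish did, with 0 of 7 tested markers past the threshold for IFNγ in WT by edgeR. The part of either marker list in the retinal values was not tested.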

How the data were processed

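RNA-seq gene counts were used as deposited. Per the submitters' processing notes, the tools were Trim Galore and STAR and the genome was mouse GRCm38 (mm10), with no versions named. Per the file headers, the authors made the ganglion counts with featureCounts 2.0.1 and Ensembl release 101 over all exons, unstranded, at a mapping quality of at least 10; the command names 20 alignment files, of which 15 have columns. The program behind the retinal counts is not named. An unnamed retinal line, which in 12 of 12 libraries held the sum of all genes (50% of what the file adds up to), was left out.

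The 2 tables were fitted separately, each over all its groups, with edgeR 4.0.16 (TMM scaling, filterByExpr with a minimum count of 10 and total of 15, robust quasi-likelihood test) in R 4.3.3, adjusted by Benjamini-Hochberg over all genes tested. CPM is TMM-scaled, and RPKM uses the deposited gene length. SE was taken from the fold change and its F statistic. DESeq2 1.42.0, limma 3.58.1 with voom quality weights, other scaling and filters, fewer groups, covariates and left-out libraries were alternatives. The scripts were tested on simulated data. Likeness used genes with a mean of at least 5 CPM and a prior count of 2. Unstranded counting cannot tell a gene from an overlapping antisense gene.

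The members and lists were chosen with earlier results of these data known. All 8 members were described, and per list and comparison up to 4 genes past the threshold with the smallest p. Single markers that define or best separate a library were named after their values were seen. Some genes that this rule names are not reported here.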

Additional observations from a re-analysis of the deposited data

Results flagged for a closer look

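The difference between the injury effects in KO and WT ganglia was past the threshold for Socs1. The interaction was 2.15 ± 0.43 on the log2 scale (95% interval 1.23 to 3.07, adjusted p = 0.0397 by edgeR's quasi-likelihood test). This call was lost on leaving out any of 11 of the 15 libraries, where the value was 1.96 to 2.24, and with only the groups compared in the fit (2.15, adjusted p = 0.0508 by edgeR). Injury gave 2.23 ± 0.31 in KO, with 18.4 ± 2.32 CPM in injured KO against 3.902 ± 0.546 CPM in sham KO ganglia. In WT it gave 0.08 ± 0.31, with 5.34 ± 1.19 CPM in injured WT against 5.08 ± 2.35 CPM in sham WT ganglia (mean ± SD, n = 3). All 3 injured KO libraries stood above the 3 sham KO libraries, and the WT groups overlapped.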

How the results depend on the processing

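Each result was recomputed under 23 alternatives in ganglia and 19 in retinal cells. Of 2086 recomputed fold changes, 1918 kept direction and side of the threshold, 75 changed sign with no call, 41 gained a call, 52 lost one, and 0 reversed a called direction. Members past the threshold numbered as follows, and the causes of changes were not tested. For injury in WT (3), there was 1 with detected genes as covariate, 4 by voom, and 1 to 3 with single libraries left out. Without WT sham replicates 1 and 3, the calls of Ptpn1 (0.57), Ptpn6 (0.95) and Socs3 (1.01) were all lost, and Ptpn11 was at -0.73. That fit rests on 1 WT sham library. For injury in KO (6), the range was 4 to 6. For sham KO against sham WT (0), there was 1 by voom and 1 without WT sham replicates 1 and 3. For injured KO against injured WT (1), there were 2 by DESeq2, 3 by voom, 3 with only the groups compared, 3 with the covariate, 2 without the WT sham pair, and 1 to 2 with single libraries left out. For the interaction (1), there were 0 with only the groups compared, 2 without the WT sham pair, and 0 to 1 with single libraries left out. For RU521 against injured WT (0), there was 1 without a filter, 2 by DESeq2, 4 by voom, 1 without the WT sham pair, and 0 to 2 with single libraries left out. For RU521 against WT sham (1), there were 2 by DESeq2, 2 by voom, 0 with only the groups compared, 2 with the covariate, and 0 to 2 with single libraries left out. DESeq2 called 1 member each for IFNγ in KO, for KO against WT with PBS, and for KO with IFNγ against WT with PBS.

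The labels do not say whether replicate numbers pair the libraries. Same-numbered ganglion libraries correlated in their deviations with a median r of -0.002 over 30 pairs (6 above 0.1, highest 0.267). Other ganglion pairs had a median of 0.0008 (highest 0.21). In retinal cells the medians were -0.003 over 18 same-numbered pairs (highest 0.056) and 0.0002 for other pairs (highest 0.058). With 3 libraries per group, these values do not settle whether libraries were paired. With the replicate block, 2 members passed for injured KO against injured WT, 1 for RU521 against injured WT and 0 for RU521 against WT sham.

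Counts over all genes moved more than members: across alternatives other than left-out single libraries, injury in WT gave 849 to 9264 genes (3070 as reported), injury in KO 2008 to 4417 (2021), sham KO 2 to 3021 (25), injured KO 413 to 2101 (407), the interaction 83 to 2008 (83), RU521 1395 to 6175 (1774) and RU521 against WT sham 10 to 4617 (442). In retinal cells KO with PBS gave 0 to 519 (3), KO with IFNγ against WT with PBS 1 to 348 (7), and the others, 0 by edgeR as reported, came to 0 to 329, highest by DESeq2. Another scaling moved the median of all genes by at most 0.06.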

Other observations

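Other tyrosine phosphatases and the ligands and receptors of the pathway were also measured. Of 12 other non-receptor tyrosine phosphatases, 3 rose and 1 fell with injury in WT ganglia, with a list median of 0.22 against 0.00 for all genes, and 0 passed in KO by edgeR (4 at an unadjusted p under 0.05, 3 by DESeq2). Those that rose were Ptpn7 (2.35 ± 0.52) and Ptpn22 (1.84 ± 0.48), both genes of lymphoid and myeloid cells, and Ptpn13 (0.69 ± 0.21). Ptpn3 fell (-1.15 ± 0.32), and it was higher with RU521 than in injured WT (1.25 ± 0.33), while Ptpn13 was lower (-0.73 ± 0.21).

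Of 9 ligand genes 6 were tested. Osm, a gp130 cytokine, had 2.44, 3.14 and 2.84 CPM in injured WT, against 1, 1 and 4 counts in sham WT ganglia, a mean under the floor of 3 counts, so no fold is given (adjusted p = 0.00178 by edgeR). In KO it had 2.63, 3.75 and 2.58 CPM after injury and 0.897, 1.61 and 2.22 CPM after sham surgery, all above the sham WT libraries. Il6 rose in both genotypes, by 2.13 ± 0.42 in KO and 2.16 ± 0.44 in WT. Ctf1, which encodes cardiotrophin, was lower with RU521, at 0.162 ± 0.121 CPM, a mean under the floor, against 2.31 ± 0.623 CPM in injured WT (adjusted p = 0.00926 by edgeR, no fold given). Between injured KO and injured WT, 0 of 6 ligand genes and 0 of 16 receptor and kinase genes passed by edgeR (1 each at an unadjusted p under 0.05, 0 each by DESeq2). Among receptors and kinases, 1 rose and 2 fell with injury in KO, and 3 rose and 1 fell in WT. In KO, Il6ra, the interleukin 6 receptor, rose (1.20 ± 0.32) and Cntfr, the receptor of ciliary neurotrophic factor, fell (-1.04 ± 0.31). In WT, Ifngr1, a chain of the IFNγ receptor, rose by 0.60 ± 0.18.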
